A study of Homo sapiens with 5 samples.

Results

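The regions described here were H2A-K130ac peaks of C4-2B cells that overlapped between the abiraterone and the Romidepsin list. They were chosen from the authors' peak lists: a peak of the abiraterone list was a member if it shared at least 1 bp with a peak of the Romidepsin list, and its Romidepsin partner was a member too. On chromosomes 1 to 22 and X, 2737 of 67780 abiraterone peaks and 2651 of 91363 Romidepsin peaks were shared in this way, which is 4.04% of the first list and 2.9% of the second. They formed 2798 overlapping pairs at 2590 separate sites, of which 2383 held 1 peak from each list.

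C4-2B is a human prostate cancer cell line that can form castration-resistant tumours. The study profiled it by ChIP-seq with an antibody against H2A-K130ac after treatment with abiraterone or with Romidepsin, with 1 deposited list per treatment. No list of untreated C4-2B cells was analysed, so the sites are those found under both drugs and their level without a drug is not analysed here. The sample labels repeat the VCaP treatment for both C4-2B samples and name breast cancer as their cell type, while the study's text treats C4-2B as prostate cancer cells. The duration and dose for these C4-2B samples are therefore not stated here.

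H2A-K130ac is histone H2A acetylated on a lysine in its carboxy-terminal tail. Histone acetylation is laid down by acetyltransferases and removed by deacetylases, and Romidepsin blocks class I deacetylases. Abiraterone blocks CYP17A1, an enzyme needed to make androgens, and so lowers the hormone on which prostate cells depend. The ChIP-seq of the study was meant to map where in the genome the mark lies, and the comparison made below is between the sites found under each of these drugs.

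Because 1 peak list was deposited per treatment, no test between treatments was possible. The shared peaks of each list were set beside the unshared peaks of the same list, with exact 95% binomial intervals that cover counting error only. The study's methods state a range of reads per library. Read counts are not given in the lists, and the sequencing depth under a peak is therefore not known. The fold over control and the -log10 q-value are those of the authors' peak caller. The study's reporting summary names the vehicle-treated sample as the control of its peak calls and describes broad peaks with a q-value cutoff, while the narrow peak lists used here are named minus input, so which control a fold refers to is not settled here. The lists were not held to a q of 0.01 or less, since the lowest -log10 q was 0.677 in the abiraterone and 0.240 in the Romidepsin list. Folds were ranked within a list and not compared between lists.

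A small group of sites lay at the start of a gene, where both peaks touched or nearly touched the annotated transcription start site. The promoters of 3 of these genes are shown as examples, taken from the 6 genes whose annotated start lay within 250 bp of peaks of both lists and whose gene models met the limits given below. GRM3 encodes a metabotropic glutamate receptor. Its site held an abiraterone peak of 593 bp at chr7:86272939-86273531 (hg19) and a Romidepsin peak of 648 bp at chr7:86273013-86273660, and both reached the start site. TAS2R60 encodes a bitter taste receptor, and an abiraterone peak of 173 bp at chr7:143140600-143140772 lay 54 bp past the start, wholly inside a Romidepsin peak of 545 bp that reached it. A second abiraterone peak of 126 bp, at chr7:143140945-143141070, shared 3 bp with the same Romidepsin peak. CCDC15, a coiled-coil domain gene, had an abiraterone peak of 576 bp over its start and a Romidepsin peak of 414 bp that lay 144 bp past it.

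The sequences below are the 250 bases before the RefSeq start of each gene in GRCh38.p14, written 5′ to 3′ on the plus strand, on which all of these genes lie. They are at chr7:86643659-86643908 for GRM3, chr7:143443203-143443452 for TAS2R60 and chr11:124953952-124954201 for CCDC15. The peak coordinates are in hg19, so the peaks were not placed on these bases. Genes were kept only where the RefSeq start lay within 100 bp of the limit of the RefSeq gene and the transcript in the authors' annotation was within 100 bp of that gene's length. This does not show that both name the same start. Capitals mark, on either strand, the letters CCAAT in GRM3 and GGGCGG (GC box) in CCDC15.
GRM3: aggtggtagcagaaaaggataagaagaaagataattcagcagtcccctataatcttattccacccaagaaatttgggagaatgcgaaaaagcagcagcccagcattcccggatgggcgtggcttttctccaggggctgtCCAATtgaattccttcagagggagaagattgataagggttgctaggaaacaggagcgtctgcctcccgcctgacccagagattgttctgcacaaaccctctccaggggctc
TAS2R60: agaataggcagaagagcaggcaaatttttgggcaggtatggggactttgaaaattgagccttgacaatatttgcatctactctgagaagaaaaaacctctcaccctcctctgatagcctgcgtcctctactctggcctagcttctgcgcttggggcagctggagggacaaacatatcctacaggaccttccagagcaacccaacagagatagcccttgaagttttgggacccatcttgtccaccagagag
CCDC15: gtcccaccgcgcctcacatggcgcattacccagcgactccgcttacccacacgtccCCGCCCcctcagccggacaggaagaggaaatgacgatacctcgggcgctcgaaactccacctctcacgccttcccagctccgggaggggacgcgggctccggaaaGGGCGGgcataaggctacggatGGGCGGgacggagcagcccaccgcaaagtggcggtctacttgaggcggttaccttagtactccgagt

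GRM3 carried 1 CCAAT box, CCDC15 carried 3 GC boxes and TAS2R60 carried none of the motifs searched. Their GC content was 50% for GRM3, 49.2% for TAS2R60 and 65.2% for CCDC15. Among all sites, 97 pairs had both peaks within 1 kb of a start site, 96 of them with the same nearest gene in both lists, and in 8 pairs both peaks reached the start itself. These 96 pairs belonged to 90 genes, of which 74 matched a RefSeq promoter and 23 also met the limits of 100 bp. The median GC content of the 23 promoters was 56.4%, against 58% for all 27305 promoters. It was 59.6% both for 374 genes, chosen by the same limits, with only an unshared abiraterone peak that close and for 592 with only an unshared Romidepsin peak that close.

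The motifs were counted on both strands, and a match describes letters only. A GC box was present in 11 of the 23 promoters, or 47.8% (interval 26.8 to 69.4%), against 42.3% of all promoters and 46.8% and 50% of those near unshared abiraterone and Romidepsin peaks. An E-box (CACGTG) was present in 1, or 4.35%, against 6.49% of all promoters, a CCAAT box in 8, or 34.8%, against 33.0%, and a TATA box (TATAAA) in 5, or 21.7% (7.46 to 43.7%), against 11.1%. A form of the sterol regulatory element bound by SREBF1 (TCACNCCAC) was in 0 of the 23, with an interval up to 14.8%, and in 0.875% of all promoters. The intervals include the shares of all promoters for each of these motifs.

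Ranked by the lower of their 2 fold percentiles, the first 10 start-site pairs lay near TAS2R60, NOL8, STK40, EIF2B5, CNDP2, BTN3A3, ATP5MJ, CHCHD4, GPC2 and FAAH. Abiraterone and Romidepsin folds over control are given in that order in what follows. TAS2R60 had folds of 4.72 and 4.30. STK40, a kinase-related gene, had folds of 3.78 and 5.23 and was the only one of these 10 with a -log10 q of at least 2 in both lists, at 2.66 and 2.86. EIF2B5, the gene of the catalytic subunit of the translation initiation factor eIF2B, had folds of 3.78 and 4.32, and its peaks at chr3:183852712-183853022 and chr3:183851998-183852934 both reached the start site. NOL8, a gene for a nucleolar protein, had folds of 4.48 and 3.77 with both summits on the same base, 0 bp apart, and peaks of 225 and 220 bp whose ends nearly coincided. Genes with mitochondrial products were ATP5MJ (a subunit of ATP synthase) with folds of 3.58 and 3.44, and CHCHD4 (protein import into the intermembrane space) with folds of 4.72 and 3.44. FAAH, which breaks down fatty acid amides, had folds of 2.85 and 4.35.

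The annotation classes of the shared peaks were close to those of the lists they came from, with a modest shift toward promoters. In the abiraterone list, 271 shared peaks (9.90%, interval 8.81 to 11.1%) were annotated within 3 kb of a start site, against 7.49% (7.29 to 7.69%) of the unshared peaks. In the Romidepsin list the shares were 9.88% (8.77 to 11.1%) and 8.82% (8.64 to 9.01%), and these intervals overlapped. Abiraterone members must overlap a Romidepsin peak, so the higher promoter share of the Romidepsin list bears on the abiraterone difference by the rule. The abiraterone difference was most visible between 1 and 2 kb from the start, with 3.65% (2.98 to 4.43%) of shared and 2.35% (2.24 to 2.47%) of unshared peaks. Within 1 kb the shares were 3.95% and 3.14% under abiraterone and 3.92% and 3.51% under Romidepsin.

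Most shared peaks lay far from promoters. Distal intergenic sequence held 46.1% (44.2 to 48.0%) of the shared and 48.5% (48.1 to 48.9%) of the unshared abiraterone peaks, and 45.8% (43.9 to 47.7%) and 48.0% (47.7 to 48.3%) of the Romidepsin peaks. Introns held 38.7% of the shared and 39.6% of the unshared abiraterone peaks, and 38.4% and 37.9% of the Romidepsin peaks. Exons outside promoters and untranslated regions held 3.25% (2.62 to 3.99%) and 2.68% (2.56 to 2.81%) under abiraterone, and 3.77% (3.08 to 4.57%) and 3.29% (3.18 to 3.41%) under Romidepsin. The intron and exon intervals of shared and unshared peaks overlapped or touched in both lists.

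**Figure D1:**
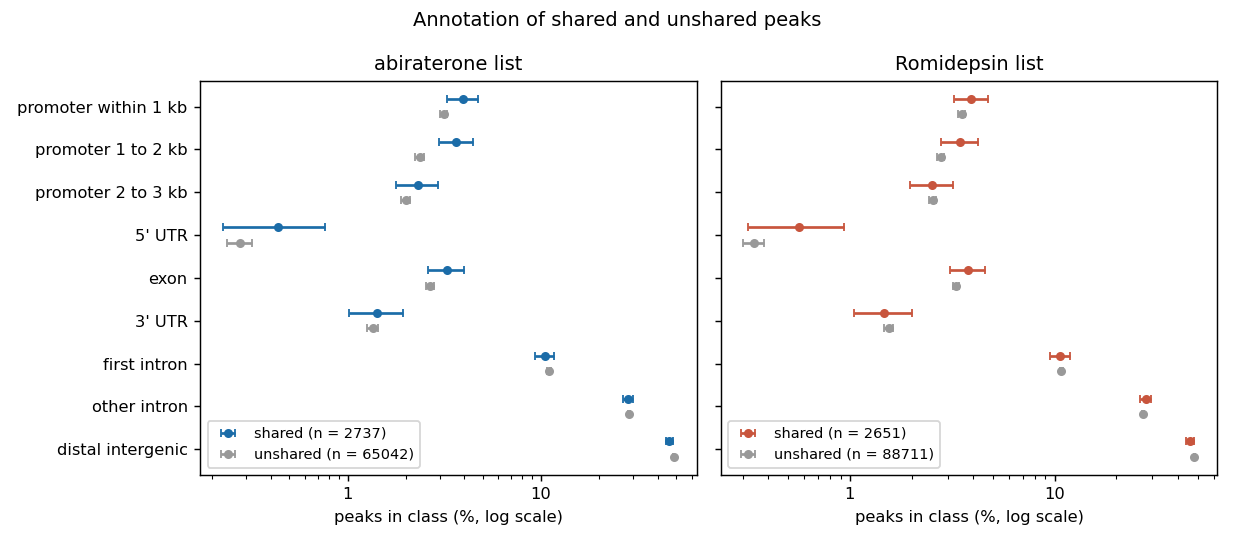
Share of peaks in each annotation class, in percent on a log scale, for shared (coloured) and unshared (grey) peaks of the abiraterone list (left) and the Romidepsin list (right). Points are shares and bars exact 95% binomial intervals. The 1 to 2 kb promoter class of the abiraterone list, at 3.65% against 2.35%, shows intervals well apart. In the Romidepsin list the intervals of this class overlap.

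Wide peaks are more easily overlapped, so width belongs to the rule and is given as a description. Shared abiraterone peaks had a median width of 375 bp (369 to 382) and unshared ones of 338 bp, and the Romidepsin medians were 386 bp (380 to 394) and 348 bp. Of the abiraterone peaks under 150 bp, 3.10% were shared, and the share rose from 2.70% between 150 and 250 bp to 8.997% at 800 bp and above. In the Romidepsin list it rose from 2.07% under 150 bp to 5.50% at 800 bp and above. The promoter shift was recomputed within width classes. Among abiraterone peaks under 400 bp, 8.66% (7.32 to 10.2%) of the shared and 7.10% of the unshared peaks were promoter peaks, and at 400 bp or wider the shares were 11.6% (9.81 to 13.6%) and 8.39%. Among Romidepsin peaks they were 9.001% and 8.17% under 400 bp, and 10.9% and 10.1% at 400 bp or wider. Counted within 1 kb of a start site the shares of narrow peaks lay close together, with 3.03% (2.25 to 4.003%) of shared and 2.93% of unshared abiraterone peaks under 400 bp, and 2.95% (2.14 to 3.97%) and 3.12% of Romidepsin peaks, where the direction turned. At 400 bp or wider they were 5.19% and 3.64% under abiraterone and 5.04% and 4.23% under Romidepsin.

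Shared abiraterone peaks lay nearer to start sites than unshared ones, with median distances of 39294 bp (36524 to 42409) and 49897.5 bp (49100 to 50775). Shared Romidepsin peaks, at 39362 bp (36621 to 42526), did not stand apart from the unshared ones, at 40655 bp (40047 to 41298). Abiraterone members must overlap a Romidepsin peak, so the nearer placement of the Romidepsin list bears on the abiraterone difference by the rule. By band, the shared share of the abiraterone list fell from 5.45% (4.66 to 6.32%) of peaks at 1 to 3 kb from a start site to 2.37% (1.93 to 2.88%) of peaks at 500 kb or more. In the Romidepsin list the band from 1 to 3 kb had 3.25% (2.77 to 3.78%), the bands from 3 to 500 kb had 2.83 to 3.01%, and 500 kb or more had 2.22% (1.81 to 2.69%). The direction of transcription made little difference, since 55.9% of the shared and 54.6% of the unshared abiraterone peaks off the start site lay downstream of it.

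**Figure D2:**
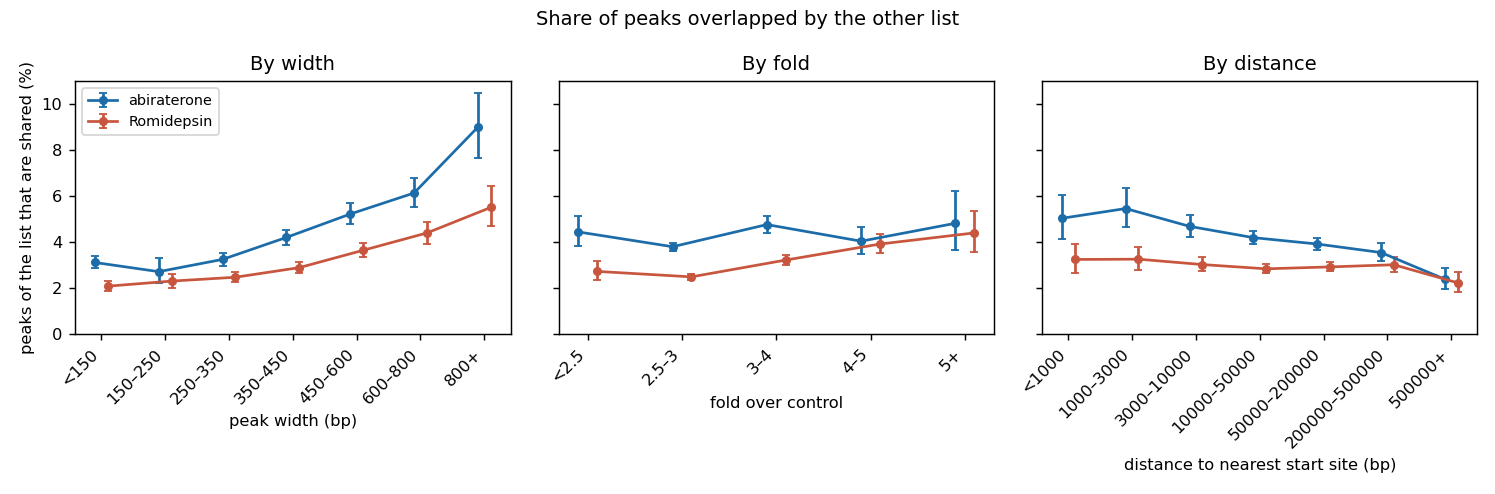
Percent of the peaks of each list that were shared, by peak width in bp, fold over control and distance to the nearest start site in bp, with exact 95% binomial intervals as bars. The width panel rises in both lists, to 8.997% of abiraterone and 5.50% of Romidepsin peaks at 800 bp or wider, and the distance panel falls for abiraterone to 2.37% at 500 kb or more.

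A peak is more easily overlapped where the other list is dense, so local density bears on the rule and is given as a description. Shared peaks had slightly more neighbours. Within 100 kb of its summit, a shared abiraterone peak had a median of 6 other abiraterone peaks and 8 Romidepsin peaks besides its partner, and an unshared one had 5 and 6. For a shared Romidepsin peak the medians were 8 other Romidepsin peaks and 6 abiraterone peaks besides its partner, against 7 and 5 for an unshared one. The difference within a list was lost without chromosome 1 for abiraterone (5 against 5) and among peaks of 400 bp or wider for Romidepsin (8 against 8). The sites themselves were scattered: the median distance from a site to the nearest other site was 303 kb, and 126 of the 2590 sites (4.86%) had another within 10 kb. Chromosome 1 held the most sites, 329, and the share of abiraterone peaks that were shared ran from 2.41% (1.76 to 3.21%) on chromosome 13 to 5.15% (4.65 to 5.70%) on chromosome 1. In the Romidepsin list the range was from 1.16% (0.676 to 1.85%) on chromosome 19 to 4.15% (3.60 to 4.77%) on chromosome 7, and the X chromosome had 1.31% (0.977 to 1.71%).

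By fold, shared peaks had higher median ranks than unshared ones, while the abiraterone folds themselves differed little. The median fold was 2.85 for shared and 2.83 for unshared abiraterone peaks, and 3.02 and 2.61 for Romidepsin peaks. Folds took few distinct values, 595 in the abiraterone and 429 in the Romidepsin list, so that the abiraterone medians are neighbouring steps and still differ as percentiles of the list, at 66.2 and 50.8. The Romidepsin percentiles were 58.4 (43.4 to 59.6) and 43.4, and among pairs with summits within 100 bp both were 43.4. The share of Romidepsin peaks that were shared was 2.71% (2.32 to 3.15%) at folds under 2.5. From 2.48% (2.34 to 2.62%) at folds of 2.5 to 3 it rose to 4.39% (3.56 to 5.35%) at 5 and above. Among peaks of 400 bp or wider it rose from 2.98% under a fold of 2.5 to 4.92% at 4 to 5, and was 4.69% at 5 and above. No such course was seen under abiraterone, where the bands ran from 3.79% to 4.81% in no order.

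A -log10 q of at least 2, which is a q of 0.01 or less, was carried by 818 of the shared abiraterone peaks (29.9%, interval 28.2 to 31.6%), where the background of the whole list was 24.9%. In the Romidepsin list it was carried by 110 shared peaks (4.15%, 3.42 to 4.98%), with a background of 2.73%. Both peaks passed in 31 pairs, or 1.11% of the 2798. The site ranked first by the lower of its 2 fold percentiles, which were 99.3 and 98.0, lay 108 kb upstream of ANKH, a gene for a membrane protein of pyrophosphate and mineral balance. Its abiraterone peak at chr5:14980004-14980652 had a fold of 6.27 and its Romidepsin peak at chr5:14980604-14980932 a fold of 5.13, but the overlap was 49 bp and the summits lay 703 bp apart.

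LHX2, a LIM homeobox transcription factor gene, was nearest to the next site by that rank, 67.7 kb from its start. There a Romidepsin peak of 636 bp with a fold of 6.88 spanned 2 abiraterone peaks, one of 158 bp with a fold of 4.75 and one of 316 bp with a fold of 3.78 whose summit was 7 bp from the Romidepsin summit. In the first intron of PVT1, a long noncoding RNA gene beside MYC, the folds were 4.72 and 5.15 with summits 139 bp apart. A site 58.2 kb upstream of APC, the Wnt pathway tumour suppressor, at chr5:111984568-111984979 and chr5:111984437-111984955, had folds of 4.48 and 5.16, -log10 q of 2.87 and 2.86 and summits 16 bp apart. Other pairs that passed in both lists lay in introns of KALRN, with folds of 4.66 and 4.97, and of CHCHD3, a mitochondrial inner membrane organizer, with folds of 3.58 and 5.16.

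The remaining sites among the 10 highest ranked lay near TGM2, LINC01014, NRXN3, TCF7, TNFRSF21, NHSL1-AS1 and ZFPM2, and each had a -log10 q of 1.96 in the Romidepsin list, just under 2. TGM2, which encodes a protein cross-linking transglutaminase, had folds of 4.75 and 4.71 with 316 bp shared. NRXN3 encodes a presynaptic adhesion molecule, and its site in intron 4 of 20 at chr14:78922397-78923133 had folds of 5.70 and 4.35, with the whole Romidepsin peak of 491 bp inside the abiraterone peak. TCF7 (a Wnt-responsive transcription factor) and TNFRSF21 (a death receptor) had the same folds, 4.75 and 4.35. ZFPM2, a cofactor of GATA factors, had folds of 5.70 and 4.35 with summits 26 bp apart.

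The 2 folds of a pair did not rise together. Over the 2798 pairs the Spearman correlation was -0.04, given as a description over pairs drawn from the same 2 peak lists, and for the 2 widths it was -0.06. In the upper 10% of the fold ranking of both lists stood 27 pairs (0.965%), while 244 (8.72%) stood there in the abiraterone list and 397 (14.2%) in the Romidepsin list. NTM, a neuronal adhesion gene, shows how far they could part: in a pair in its intron 2 the abiraterone peak had a fold of 5.70 and the Romidepsin peak 1.74. ACP3, the gene of prostatic acid phosphatase, had the opposite, with folds of 2.77 and 6.56 at a site 2.12 kb upstream of its start.

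**Figure D3:**
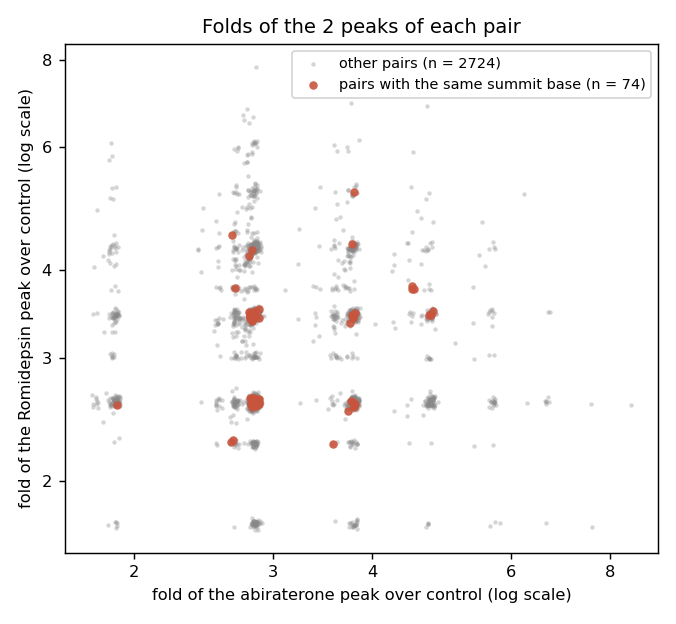
Fold over control of the Romidepsin peak against that of the abiraterone peak for each of the 2798 pairs, on log scales, with a small random shift so that tied values can be seen; the 74 pairs whose summits fall on the same base are in red. The points form a grid of repeated fold values with no rising trend (Spearman correlation -0.04).

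Within a pair, the peaks covered one another only in part. The overlap had a median of 157 bp (interval 144 to 168) and reached 849 bp, at a site in the last intron of SPAG16 whose nearest start site was that of VWC2L, at chr2:215242614-215244078 and chr2:215242515-215243462. The median overlap was 53.2% of the abiraterone peak and 48.6% of the Romidepsin peak. In 872 pairs (31.2%) it covered at least 50% of both peaks, in 936 pairs (33.5%) 1 peak lay wholly inside the other, and in 698 pairs (24.9%) neither summit lay inside the other peak. The next widest overlaps lay at the start of ZNF496, a zinc finger gene, where the whole abiraterone peak of 758 bp was covered, and in introns of TMEM184C (741 bp), ANKFN1 (702 bp) and IMMP2L near LRRN3 (693 bp). At the edge of the rule, 56 pairs shared 1 to 10 bp, with median widths of 319.5 and 290 bp and median folds of 2.83 and 2.61. The 63 pairs that missed by gaps of 0 to 9 bp had widths of 306 and 297 bp and the same rounded folds. A further 4645 unshared abiraterone peaks (7.14%) had a Romidepsin peak within 1 kb of them.

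The summits of paired peaks lay a median of 176 bp apart (166 to 184), with 873 pairs (31.2%) within 100 bp and the farthest 1266 bp apart. In 74 pairs (2.64%, interval 2.08 to 3.31%) both summits were called on exactly the same base. Each single offset of 1 to 10 bp in either direction held 1 to 12 pairs, with a median of 4, and each offset of 11 to 50 bp held 0 to 9. The abiraterone summit had the lower coordinate in 1334 pairs and the higher in 1390, so no direction prevailed.

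**Figure D4:**
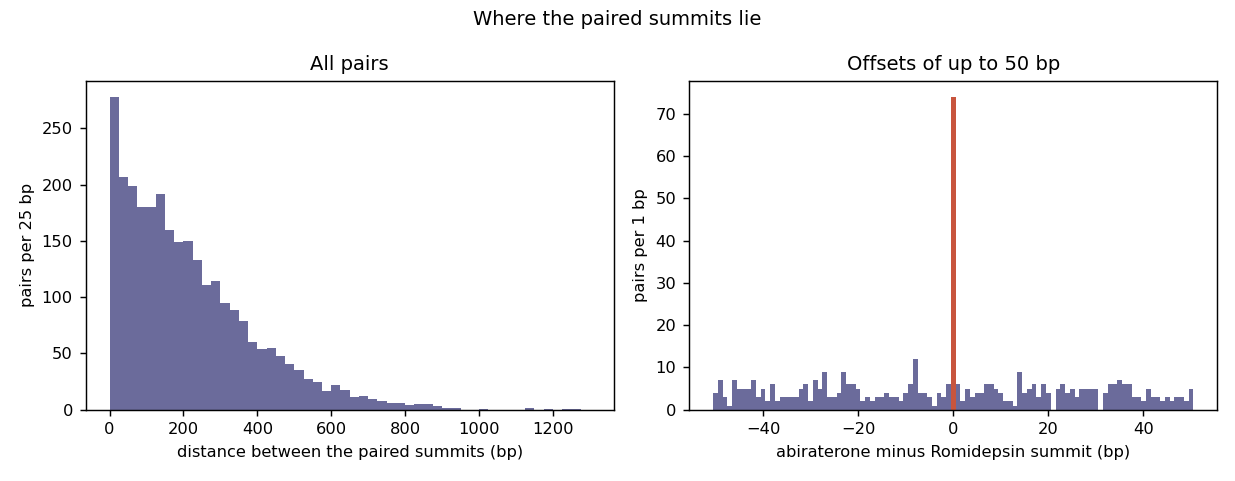
Left, number of pairs by distance between the 2 summits, in steps of 25 bp; right, number of pairs at each single-base offset (abiraterone minus Romidepsin) up to 50 bp either way. The red bar at offset 0 holds 74 pairs and the other offsets shown hold at most 12.

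The 74 same-summit pairs were narrower than the rest. Their median widths were 311 and 289 bp, against 380.5 and 395 bp in the other 2724 pairs. Peaks of 125 bp, the narrowest in the lists, to 130 bp made up 40.5% of their abiraterone and 31.1% of their Romidepsin peaks, against 16.4% and 9.69% in the other pairs and 23.01% and 15.7% in the whole lists. Their median fold percentile was 66.2 in the abiraterone list, the same as in the other pairs, and 43.4 in the Romidepsin list against 58.4. The interval of the Romidepsin median over all shared peaks, 43.4 to 59.6, includes both of these values. The 74 pairs were found on 22 chromosomes with at most 9 on any of them, and 39 were distal intergenic, 24 intronic and 6 at promoters.

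In 13 of the 74 pairs both ends also lay within 10 bp of each other, as they did in 18 of the other pairs. A single pair had the same start and the same end, at chr21:33755861-33756170 in exon 4 of 39 of URB1, a ribosome biogenesis gene, where SNORA80A, a small nucleolar RNA gene, had the nearest start site. Its folds were 2.85 and 2.61. NOL8 was the promoter example, with starts 1 bp apart. Near MAP3K21, a kinase gene, the starts were identical and the ends lay at 233456629 and 233456618 on chromosome 1. The reads at these positions were not analysed here.

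Both peaks of a pair were nearly always assigned the same gene (2793 pairs, 99.8%) and the same broad class (2712 pairs, 96.9%). Across both lists 18384 genes were nearest to some peak and 11721 to peaks of both lists. Of these, 2134 genes, a background of 18.2%, were nearest to a shared site in both lists. A single site was the rule: 1787 genes (83.7%) had 1, 272 had 2, 51 had 3, and 24 had 4 or more.

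How many peaks a gene had in all went with whether it had a shared site. A rise is given by counting, since each further peak is a further occasion for an overlap and the shared peaks are included. The values are therefore a description. Of the genes with 2 to 4 peaks over both lists, 5.68% had a shared site, and the share was 21.95% at 10 to 19 peaks, 55.7% at 40 to 79 and 78.3% at 80 to 214. Genes with a shared site spanned a median of 52.0 kb and had 16 peaks, and those with peaks of both lists but no shared site spanned 33.2 kb and had 6.

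**Figure D5:**
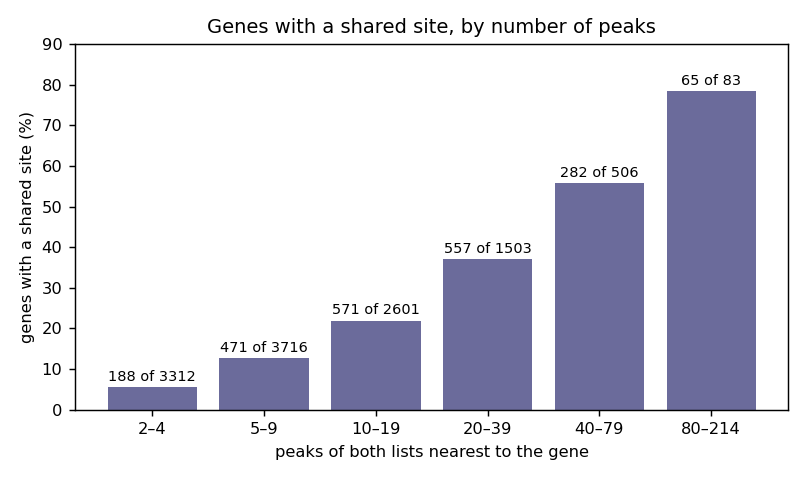
Percent of the genes nearest to peaks of both lists that had a shared site, by the number of peaks of both lists nearest to the gene; the labels over the bars give the genes with a shared site and all genes in the group. The bars rise from 5.68% of genes with 2 to 4 peaks to 78.3% of genes with 80 to 214.

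LRRC4C, which encodes a netrin-G ligand of synapses, had the most shared sites, 6, from 89 abiraterone and 98 Romidepsin peaks over and around a gene of 1345 kb. Of these 6 sites, 2 lay in its first introns and 4 in the intergenic sequence around it, the farthest 1495094 bp from the start site. The most prominent, at chr11:40095191-40095619 and chr11:40095566-40095929, had folds of 3.58 and 6.01 and an overlap of 54 bp, with summits 518 bp apart. A closer pair, at chr11:39655995-39656450 and chr11:39655994-39656337, had summits 6 bp apart and folds of 2.85 and 2.61.

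EFNA5 (ephrin-A5, an axon guidance ligand), NTM and DNAH11 had 5 sites each. EFNA5 had 72 abiraterone and 46 Romidepsin peaks and NTM had 45 and 84. At both genes pairs of narrow abiraterone peaks lay under 1 wide Romidepsin peak, as in intron 4 of NTM, where abiraterone peaks of 125 and 127 bp lay inside a Romidepsin peak of 708 bp. ASB3, ATXN7L1, AUTS2, BCAR3, CAMTA1 and CDH18 were among the 20 genes with 4. AUTS2, a regulator of neuronal development, had 61 and 100 peaks, and 3 of its 4 sites lay upstream in intergenic sequence. CAMTA1, a calmodulin-binding transcription activator, had 31 and 75 peaks, and in 2 of its 4 pairs the overlap was 9 and 14 bp.

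A few genes had several shared sites from few peaks, and they were singled out after their values were seen. DNAH11, which encodes a dynein heavy chain of cilia, had 13 abiraterone and 8 Romidepsin peaks, and 5 of each were shared (38.5% and 62.5%). Of its sites, 1 lay in exon 33 of 82 at chr7:21726853-21726978, as a pair of peaks of 126 bp each that shared 119 bp, and another lay beside it in intron 32. SAP30L-AS1 had the nearest start site to 4 abiraterone and 8 Romidepsin peaks, of which 4 of each were shared (100% and 50%). At 3 of those 4 sites the peaks lay in introns 5 and 6 and exons 5 and 6 of GALNT10, a glycosyltransferase gene, and the pair with both peaks in exon 6 had its summits on the same base. CCDC174 had 3 sites from 5 and 7 peaks, all upstream of its start, and BCAR3, an adaptor protein gene linked to antiestrogen resistance, had 4 from 10 and 15.

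Of 12 genes of sterol and fatty acid synthesis with peaks of both lists, 3 (25%) had a shared site. Of 13 genes of androgen synthesis 1 (7.69%) had one. The share over all genes was 18.2%. The median number of peaks per gene was 10.5 for sterol and fatty acid synthesis and 5 for androgen synthesis, against 7 over all genes. Of genes of any kind, 21.95% with 10 to 19 peaks and 12.7% with 5 to 9 peaks had a shared site. ME1, the malic enzyme that supplies NADPH for lipid synthesis, had 2 sites. The first, in intron 3 of 13 at chr6:84092525-84093250, had folds of 1.89 and 2.58, and the other, 33.1 kb upstream, had 2 abiraterone peaks with folds of 2.83 and 2.85 under a Romidepsin peak with a fold of 4.35. HMGCS1, the cytosolic HMG-CoA synthase of cholesterol synthesis, had the nearest start site to a pair at chr5:43277075-43277406 and chr5:43277137-43277404, with folds of 2.85 and 2.61 and summits 15 bp apart. That pair lay in exon 3 of 4 of the neighbouring gene NIM1K, 17.6 kb from the HMGCS1 start. INSIG2, which retains SREBP precursors in the endoplasmic reticulum, was nearest to a site 268 kb away with folds of 2.83 and 3.48. SRD5A3, of the steroid 5-alpha-reductase family, had a pair in intron 1 of 4 with folds of 2.85 and 2.58, in which the whole abiraterone peak of 292 bp lay inside a Romidepsin peak of 910 bp and the summits were 695 bp apart.

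Of 16 androgen receptor program genes with peaks of both lists, 2 (12.5%) had a shared site. These were ACP3, described above, and HOXB13, a prostate homeobox gene, with a pair 32.4 kb upstream, folds of 2.76 and 2.26 and 78 bp shared. Of 13 acetyltransferase, deacetylase and bromodomain genes, 2 (15.4%) had a shared site, against 18.2% over all genes. The median of this list was 5 peaks per gene. Both genes with a site were class IIa deacetylases. HDAC9 had 2 intronic sites with folds of 3.78 and 2.59 at the first and 2.85 and 3.48 at the other, and HDAC4 had 1 site, 171 kb upstream, with folds of 2.83 and 2.61.

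Of 16 prostate cancer driver genes 4 (25%) had a shared site, against 18.2% over all genes. The list's median number of peaks was 16.5 against 7 over all genes. Of genes of any kind with 10 to 19 peaks, 21.95% had a shared site. APC had 3 sites from 7 abiraterone and 13 Romidepsin peaks, all upstream of its start. Of these, 2 lay close together at chr5:111903958-111904082 and chr5:111904337-111904462, and at the first the summits fell on the same base. ETV1, an ETS factor fused in some prostate cancers, had sites 552 kb and 29.4 kb from its start, with folds of 4.71 and 3.02 at the farther one. SPOP, a ubiquitin ligase adaptor mutated in prostate cancer, had an abiraterone peak of 791 bp in intron 2 of 10 with a fold of 3.78, which took in a Romidepsin peak of 484 bp entirely and part of another. CTNNB1, the gene of beta-catenin, had a Romidepsin peak of 847 bp over 2 abiraterone peaks 55.8 and 55.4 kb upstream.

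Very long neuronal and fragile-site genes had the highest count, 24 of 40 (60%), and also the most peaks, with a median of 66 per gene. Of genes with 40 to 79 peaks, 55.7% had a shared site whatever their kind. The part of their peaks that was shared, 3.19% of 1317 abiraterone and 2.75% of 1529 Romidepsin peaks, was not above the 4.04% and 2.90% of all peaks. NRXN3, AUTS2 and CNTN4 (contactin 4) had 4 sites each, and DLG2 and CNTNAP5 had 3. Of 49 SOX, FOX and PAX developmental regulators 10 (20.4%) had a shared site, against 18.2% over all genes. The list's median was 13 peaks per gene against 7 over all genes. Among the 10 were PAX6, the eye and forebrain regulator, with 2 sites from 7 and 11 peaks, FOXN3 with 2 from 17 and 19, and SOX9 with 1 from 28 and 25. The shared part of the peaks was above that of all peaks for sterol and fatty acid synthesis genes (8.06% of 62 abiraterone and 3.42% of 117 Romidepsin peaks). It was also above for driver genes (6.90% of 116 and 4.91% of 163). It was below for androgen synthesis (2.63% and 1.35%), androgen receptor program (2.33% and 2.04%), acetylation (3.75% and 2.65%) and SOX, FOX and PAX genes (3.18% and 2.26%).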

How the data were processed

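H2A-K130ac ChIP-seq peaks of C4-2B under abiraterone and under Romidepsin, 1 deposited list each, were analysed. The 3 VCaP samples were not analysed here. Per the study's methods reads were aligned with Bowtie and peaks called with MACS, and the submitters' processing notes name MACS2 and hg38. The coordinates are nevertheless those of hg19, because the last Romidepsin peak on chromosome 1 ends at 249191832, beyond that chromosome in GRCh38, and the transcript identifiers are of the UCSC hg19 annotation. Whether duplicates were pooled before calling is not given in the sources used here. The deposited narrow peak lists hold a score, a fold (ratio) over control, −log10 p-values, −log10 q-values and a summit, all made by the authors' peak caller, and the annotated tables deposited beside them give class, nearest gene and distance. The score was not used. The lists hold 67807 and 91399 peaks, of which 27 and 36 on chromosome Y were left out, and 1 peak of each list has no annotation because its row had become the table header. Further annotated tables were not used.

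Overlaps of at least 1 bp were found with bedtools 2.31.1. Folds were ranked within each list as percentiles with ties at their mean rank. Shares have exact Clopper-Pearson 95% intervals and medians exact order-statistic intervals, both from counting alone. Peaks are not replicates of a treatment, and no p-value was computed. A gene was counted where it was nearest to a shared site in both lists, and 18294 of 18384 gene identifiers matched RefSeq symbols. Promoter sequences are from RefSeq (GRCh38.p14), for genes whose RefSeq start lay within 100 bp of the gene's limit and whose annotated transcript was within 100 bp of its length, limits set after the data were seen; no genome of the files' build was used here. The overlap step was checked on simulated peaks, some of them planted as shared.

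The genes named were those at the 10 shared sites with the highest lower fold percentile, the 10 genes with most shared sites, the 10 sites of highest rank within 1 kb of a start site in both lists, up to 5 genes of each of 7 gene lists, and the 5 widest overlaps, with exceptions said to be chosen after seeing values. The pairs that passed a −log10 q of 2 in both lists, the 3 promoters shown and the same-summit examples were also chosen in that way. The members and gene lists were chosen with earlier results of these data known. Alternatives were overlap of at least 50% of both peaks, summits within 100 bp, a −log10 q of at least 2, width classes, leaving out the 5000 peaks of highest fold or chromosome 1, −log10 p in place of fold, a 1 Mb window, start sites within 1 kb and gene assignment within 10 kb. Python 3.11.15, numpy 2.4.6, pandas 2.3.3, scipy 1.17.1 and matplotlib 3.10.9 were used.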

Additional observations from a re-analysis of the deposited data

How the results depend on the processing

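Of 86 alternative values for 28 results, 46 stayed within their interval or within 1.5 times the count, 38 moved and 2 turned direction. No paired analysis was possible because a single peak list is at hand for each drug. Requiring overlap of at least 50% of both peaks left 872 shared peaks in each list (1.29% of abiraterone and 0.954% of Romidepsin peaks), distal intergenic shares of 42.9% in both, summits 103 bp apart and a Romidepsin fold percentile of 61.0. The median nearest gene was then 44226 bp long in both lists, and for abiraterone, where shared peaks had the shorter genes (37840 against 42284 bp), the direction turned (44226 against 42159 bp). The Romidepsin medians were 37901 and 35204 bp. Under the same requirement genes with a shared site fell to 805 over all genes, 12 very long neuronal, 5 SOX, FOX and PAX, 2 driver, 1 acetylation, 0 androgen receptor program and 0 androgen synthesis genes, by construction since fewer pairs count. Summits within 100 bp left 873 peaks in each list (1.29% and 0.956%), with median widths of 347 and 362 bp and a Romidepsin fold percentile of 43.4 for shared and unshared peaks alike. A −log10 q of at least 2 in both lists left 31 and 29 peaks, with summits 117 bp apart. They were 0.184% of the 16893 abiraterone and 1.16% of the 2496 Romidepsin peaks that passed this limit, not of the whole lists. Without the 5000 peaks of highest fold the shares were 3.68% and 2.58%.

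In width classes the abiraterone promoter share was 8.66% under 400 bp and 11.6% at 400 bp or wider, above the unshared share in both. The Romidepsin distance to a start site turned direction under 400 bp (44542 bp shared against 42444 bp unshared) and was 36149 bp at 400 bp or wider. Counted within 1 kb, promoter shares were 3.95% and 3.92%. Ranking by −log10 p gave an abiraterone percentile of 67.9. Within 1 Mb there were 54 and 75 other peaks. Within 100 kb the difference from unshared peaks was lost without chromosome 1 for abiraterone (5 and 5) and at 400 bp or wider for Romidepsin (8 and 8). Pairs within 10 kb of a start site had the same nearest gene in 99.5%. Leaving out the same-summit pairs, chosen after seeing the data, left 2665 and 2584 shared peaks with promoter shares of 9.98% and 9.95%. The causes were not tested. The study's methods state a range of reads per library, but the lists do not give the depth behind each peak. How many further sites deeper libraries would share cannot be said.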
